A study of Rattus norvegicus with 6 samples.

Results

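This account concerns 10 rat genes of planar cell polarity and the atypical cadherin family, Celsr1, Celsr2, Celsr3, Fat1, Fat3, Fat4, Dchs1, Vangl1, Vangl2 and Fzd6, in the renal cortex after carbon tetrachloride. Genes were chosen by name, and of the probes whose RefSeq accession matched a gene, the one with the highest mean log2 signal over the 6 arrays stood for it. Brightness is therefore part of the choice and is given only as a description. Of the 10 genes, 8 matched at least 1 probe, out of 15645 gene symbols matched on the array, and all 8 were tested. Celsr1 and Fat4 matched no probe and were not analysed here.

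The tissue was renal cortex of male Sprague-Dawley rats (Crl:CD(SD)), bought at 5 weeks of age. The 3 rats of the control group received corn oil for 4 weeks, and the 3 rats of the treated group received carbon tetrachloride, a solvent made toxic by P450-dependent conversion to radicals, at 100 mg/kg/day over the same 4 weeks. The labels give corn oil as the control treatment and do not name the vehicle of the treated rats. RNA of each rat was labelled with Cy3 and hybridised to 1 single-colour Agilent array, so 3 arrays stand in each group, and the comparison asks which transcripts differ after the treatment. The design text names benzyl acetate in place of carbon tetrachloride, which the title, sample labels and treatment protocol give.

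Planar cell polarity orients cells within the plane of an epithelium. In its core module, seven-pass cadherins of the Celsr family bridge neighbouring cells, with Frizzled receptors and their cytoplasmic partner Dishevelled on one side of the junction and Vangl proteins with Prickle on the other. In a parallel system the very large cadherin Fat4 binds Dachsous (Dchs1) on the next cell, the kinase Fjx1 tunes that binding, and the system is linked to the Hippo kinases that restrain the coactivators YAP and TAZ. In the kidney these genes are best known from the oriented divisions and elongation of tubules, and FAT1 is also needed by podocytes. In whole tissue, fewer cells of a type and less RNA per cell cannot be told apart.

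Signals are given as scaled signal, the processed signal divided by the 75th percentile of its array, so that 1.00 is the 75th percentile, and differences as log2, carbon tetrachloride minus corn oil. A scaled signal is comparable between arrays for 1 probe, not between probes. The share of probes well above background ran from 68.5% to 72.1% over the arrays. Slide 1 held all corn oil arrays and 2 treated arrays, and slide 2 held the array of carbon tetrachloride replicate 3. The tissue label was set beside markers: 8 of 8 proximal tubule, 7 of 7 podocyte and 7 of 7 endothelial genes were well above background on all 6 arrays. So were 6 of 6 collecting duct genes, the 4 tested loop and distal tubule genes and 3 of 4 tested urothelial genes. Detection therefore does not tell cortex from other regions of the kidney. Of 5 adrenal cortex genes 2, Cyp11a1 and Hsd3b1, were well above background on all arrays and 3 had no probe well above background on any.

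Fat3 was lower and Celsr2 higher in the carbon tetrachloride group, and the other 6 measured genes differed by 0.10 or less on the log2 scale. No gene of the 8 passed an adjusted p of 0.05 in limma, in either direction, against 0.00321% of the 31193 transcripts tested. At an unadjusted p under 0.05 there were 2, Fat3 and Celsr2, against 6.30% of all transcripts (3.67% higher and 2.63% lower). The same genes were the ones whose groups did not overlap, Celsr2 higher (7.54% of all transcripts) and Fat3 lower (5.27%). Both had been seen among genes of smallest p in earlier work on these arrays, so their place here is a description. The median difference of the 8 genes was -0.04, with 1 higher and 7 lower, beside a median of 0.0077 over all transcripts, of which 52.3% were higher and 47.7% lower.

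**Figure D1:**
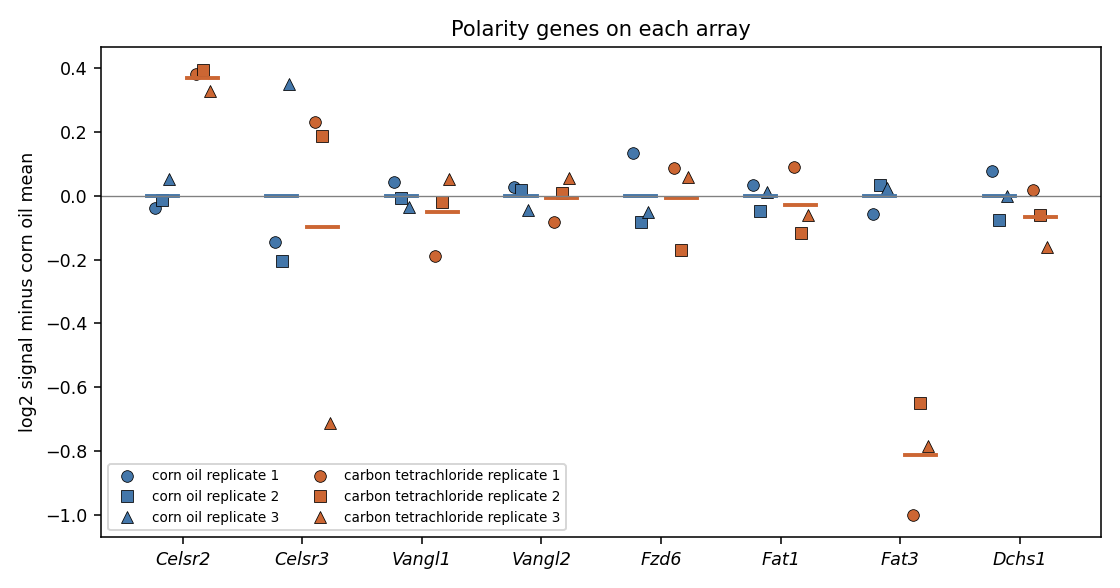
Log2 signal of each measured gene on each array, minus the mean of the corn oil arrays (vertical axis, log2), with corn oil in blue, carbon tetrachloride in orange, symbols for replicates and bars for group means. Fat3 lies at -0.65 or lower on the treated arrays, Celsr2 lies above its own, and the groups overlap for the other 6 genes.

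Among the large cadherins, Fat3, a relative of Fat1 best known for shaping the dendrites of retinal neurons, had the greatest difference. Its scaled signal was 1.00, 1.06 and 1.05 on corn oil replicates 1 to 3 and 0.518, 0.661 and 0.602 on carbon tetrachloride replicates 1 to 3. The 3 treated values lie together well below the 3 control values, with 0.59 between the nearest arrays of the groups on the log2 scale. The log2 difference was -0.81 ± 0.10 (SE, n = 3 per group), a change of -43.0% with a 95% confidence interval of -52.3% to -31.9%. By unadjusted p, 0.000259, it was number 18 of the 31193 transcripts, and its limma adjusted p was 0.448. The spread was wider after treatment, with an SD of 0.18 in the carbon tetrachloride group and 0.05 in the corn oil group (log2). Fat3 was measured by 1 probe, of the transcript NM_138544, well above background on all 6 arrays, so a second probe could not be set beside it. On slide 1 alone, which held 3 control and 2 treated arrays, the difference was -0.82 ± 0.13 (limma adjusted p = 0.543).

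Fat1, a cadherin of tubule cells and of the podocyte slit diaphragm, had a scaled signal of 16.3, 15.4 and 16.0 on the control arrays and 16.9, 14.7 and 15.3 on the treated ones. The treated arrays hold both the highest and the lowest value of the 6. The log2 difference was -0.03 ± 0.08, and its 95% confidence interval reached from -14.4% to 12.1% as a change in signal. A second bright probe gave 0.04 ± 0.07 and a dimmer one 0.15 ± 0.14, so the 3 probes fall on both sides of 0. On each treated array Fat3 lay lower relative to its control mean than Fat1 did, and on carbon tetrachloride replicate 1 Fat1 was above its mean. The 2 changes differed by -0.78 (log2). The exact two-sided permutation test over arrays gave p = 0.1, the smallest that 3 against 3 arrays allow. After Benjamini-Hochberg adjustment over 3 such pairs within families, the permutation p was 0.2.

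Dchs1, the Dachsous cadherin that serves as ligand and receptor of Fat4, had a scaled signal of 1.67, 1.50 and 1.58 after corn oil and 1.60, 1.51 and 1.41 after carbon tetrachloride. The groups overlap, and the lowest value is that of carbon tetrachloride replicate 3. The groups differed by -0.07 ± 0.08 on the log2 scale (limma adjusted p = 0.888), with an interval of -16.9% to 9.4%. Fat4, its main partner in vertebrates, was not analysed here, so the pair could not be compared.

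In the core module, Celsr2, a seven-pass cadherin known from the planar alignment of cilia and from neuronal wiring, was higher in the treated rats. Its brightest probe had a scaled signal of 1.12, 1.14 and 1.19 on the control arrays and 1.49, 1.51 and 1.44 on the treated arrays. Each treated value lies above each control value, and the arrays within a group are close together. The log2 difference was 0.37 ± 0.06 (SE, n = 3 per group), a change of 29.0% with a 95% confidence interval of 15.7% to 43.9%. Its unadjusted p of 0.00126 was number 56 of all transcripts, with a limma adjusted p of 0.689. Its residual SD of 0.04 was the lowest of the 8 genes, beside a median of 0.14 over all transcripts.

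Celsr2 had 2 further probes, both of low signal but well above background on all arrays. The dimmest had a scaled signal of 0.0290, 0.0209 and 0.0232 after corn oil and 0.0446, 0.0404 and 0.0402 after carbon tetrachloride, without overlap, and a log2 difference of 0.79 ± 0.13. The other had 0.0515, 0.0376 and 0.0527 against 0.0663, 0.0521 and 0.0462, which overlap, and a difference of 0.21 ± 0.19. All 3 probes were thus higher on average in the treated rats, and 2 of the 3 separated the groups. Tested one by one with all 42400 probes, none passed in limma, with an adjusted p of 0.637 for the brightest, 0.633 for the dimmest and 0.847 for the other.

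**Figure D2:**
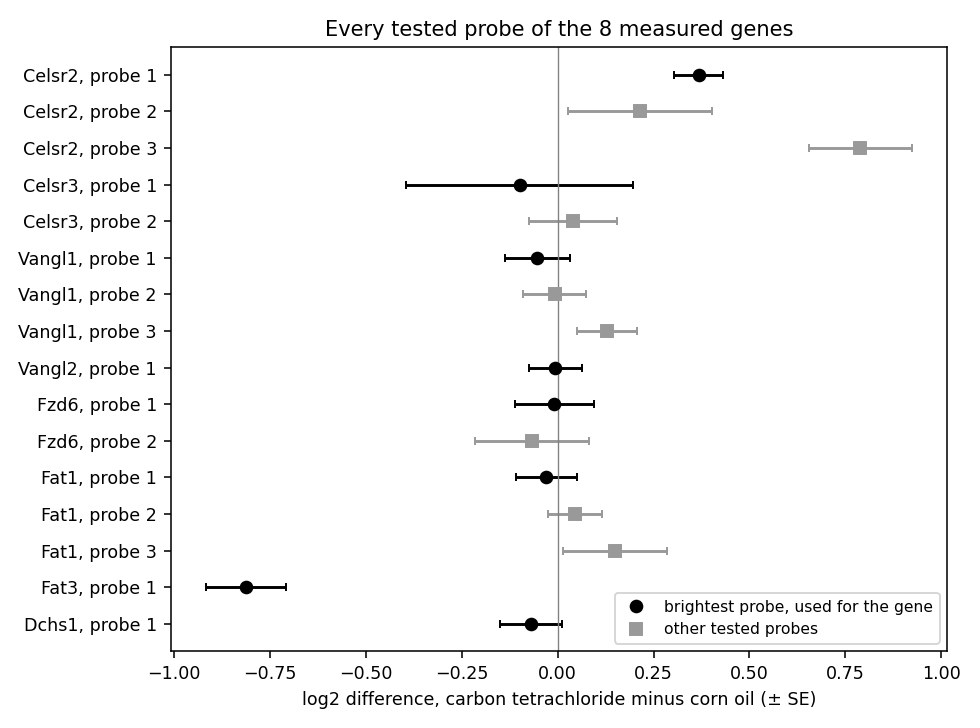
Log2 difference of each of the 16 tested probes of the 8 genes (horizontal axis, carbon tetrachloride minus corn oil, bars ± SE), with the probe used for a gene in black and its other probes in grey, ordered by brightness within a gene. The 3 probes of Celsr2 lie right of 0, the probe of Fat3 lies far left, and the probes of Fat1, Celsr3 and Vangl1 fall on both sides.

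Celsr3, the family member best known from axon guidance, was dim and noisy. Its scaled signal was 0.0481, 0.0461 and 0.0678 after corn oil and 0.0624, 0.0605 and 0.0324 after carbon tetrachloride. Carbon tetrachloride replicate 3, the array on slide 2, holds the lowest value, and the other treated arrays lie within the range of the controls. The log2 difference was -0.10 ± 0.30, and without that array it was 0.21 ± 0.19, so no direction is given for this gene. The interval reached from -43.6% to 54.6%, which leaves a change of the size seen for Celsr2 within it. Celsr2 and Celsr3 differed in their change by 0.47, with p = 0.2 in the exact permutation test, also 0.2 after adjustment over the 3 pairs. Array by array, in replicate order, Celsr2 minus Celsr3 was 0.15, 0.21 and 1.04 after carbon tetrachloride. After corn oil it was 0.11, 0.19 and -0.30, so the gap rests largely on carbon tetrachloride replicate 3.

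Vangl1 and Vangl2, four-pass membrane proteins that recruit Prickle, showed differences near 0 with narrow intervals. Vangl1 had a scaled signal of 4.67, 4.52 and 4.42 on the control arrays and 3.98, 4.47 and 4.70 on the treated arrays, and the treated arrays span the controls. Its log2 difference was -0.05 ± 0.08, with an interval of -16.5% to 11.3%. Of its other probes, the dimmer one gave 0.13 ± 0.08 with groups that did not overlap, the opposite direction to the brightest, and the middle one -0.0078 ± 0.08.

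Vangl2, whose loss leaves the neural tube open in mice, had 1.99, 1.98 and 1.89 after corn oil and 1.85, 1.97 and 2.03 after carbon tetrachloride. These 6 values lie closely together, and the treated group again holds the lowest and the highest. Its log2 difference was -0.0058 ± 0.07 with an interval of -11.5% to 12.0%. Its 2 other probes were not tested, since 1 was above background on 1 array and 1 on none. The changes of Vangl1 and Vangl2 differed by -0.05 (exact permutation p = 0.2, and 0.2 adjusted over the 3 pairs).

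Fzd6, a Frizzled receptor of the core module known from hair patterning, had a scaled signal of 0.235, 0.202 and 0.207 on the control arrays and 0.228, 0.191 and 0.223 on the treated arrays. The ranges overlap almost wholly. A log2 difference of -0.0081 ± 0.10 was measured, and a second probe gave -0.07 ± 0.15. The interval for the brightest probe reached from -16.7% to 18.7%. Of the 8 genes, 7 had a residual SD below the median of all transcripts, and Celsr3, at 0.43, was the exception.

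The other genes of the pathway were read from 5 lists of 85 genes, of which 69 were tested, 12 matched no probe and 4 were not above background often enough to be tested. None passed an adjusted p of 0.05 in limma, higher or lower, and 1, Cdh2, had an unadjusted p under 0.05. Of the 69, 40 were higher and 29 lower, with a median difference of 0.01, and the groups did not overlap for 3 higher and 4 lower genes, 4.35% and 5.80%, near the 7.54% and 5.27% of all transcripts. None of the 69 differed as much as Fat3, and 68 differed by less than Celsr2. These counts describe the lists and were not set against each other by a test.

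Of 15 further core polarity genes 10 were tested, and 7 were higher and 3 lower with a median of 0.02. Prickle2, a cytoplasmic partner of Vangl proteins, had a log2 difference of -0.29 ± 0.25, with carbon tetrachloride replicate 3 well below the rest at -4.07 against -3.41 to -3.08 on the other 5 arrays (log2 relative to the 75th percentile), and without that array the difference was -0.016. Fjx1, which modulates the binding of Fat to Dachsous, had 0.18 ± 0.16. Dvl2, a Dishevelled protein, had 0.08 ± 0.07 with groups that did not overlap. The limma adjusted p of these 3 ran from 0.849 to 0.855. Fat2 and Ankrd6 were not tested, and Dchs2, Ptk7 and Prickle4 matched no probe.

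Among Wnt ligands, Frizzled receptors and co-receptors, 17 of 19 genes were tested, 11 higher and 6 lower, with a median of 0.07. Wnt11 and Wnt9b, ligands needed for branching and for tubule formation in the developing kidney, had log2 differences of 0.19 ± 0.10 and 0.23 ± 0.15. Both were dim, with scaled signals of 0.052 to 0.066 for Wnt11 and 0.044 to 0.069 for Wnt9b over the 6 arrays. With normexp background correction the differences shrank to 0.0084 to 0.024 for Wnt11 and 0.055 to 0.071 for Wnt9b. Without corn oil replicate 1 Wnt9b had 0.11. Fzd2 had 0.18 ± 0.13. The groups overlapped for all 17 genes. The formins, small GTPases, kinases and ciliary proteins that act further down gave 13 tested genes of 18, 8 higher and 5 lower, and none differed by more than 0.10. Mapk9, a JNK kinase, had -0.10 ± 0.06 without overlap, Invs, the ciliary protein inversin, 0.09 ± 0.08, and Smurf2, a ubiquitin ligase that targets Prickle, 0.07 ± 0.07.

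In the Hippo list, 18 of 21 genes were tested, 10 higher and 8 lower, with a median of 0.02. Yap1 matched no probe, and Wwtr1, which encodes TAZ, had 0.06 ± 0.11. Ccn2, a target of YAP and TAZ that also responds to other signals, had the greatest difference, 0.75 ± 0.40. Its values were 2.17, 2.09 and 1.14 on the control arrays and 3.25, 2.32 and 2.09 on the treated ones (log2 relative to the 75th percentile). The groups overlap, and the difference rests on 1 low control and 1 high treated array: it was 0.40 without carbon tetrachloride replicate 1 and 0.42 without corn oil replicate 3. Vgll4, which competes with the coactivators for TEAD factors, had -0.19 ± 0.09 without overlap, and Tead3 0.17 ± 0.09. For Vgll4 the nearest arrays of the groups were only 0.019 apart (log2). The limma adjusted p of Vgll4, Ccn2 and Tead3 ran from 0.798 to 0.820.

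Classical cadherins and catenins, which form adherens junctions, gave 11 tested genes of 12, 4 higher and 7 lower. Cdh2, the N-cadherin gene, whose product is a classical cadherin of proximal tubule cells, had values of 0.01, -0.10 and -0.08 after corn oil and -0.41, -0.28 and -0.37 after carbon tetrachloride (log2 relative to the 75th percentile). The groups do not overlap. Its difference was -0.30 ± 0.07, with an unadjusted p of 0.00630 and a limma adjusted p of 0.714. Cdh6, an early cadherin of proximal tubule precursors, had -0.26 ± 0.11 and Jup, the plakoglobin of junctions and desmosomes, 0.14 ± 0.06, both without overlap. The nearest arrays of the groups were 0.09 apart for Jup but only 0.0024 for Cdh6 (log2). The difference of Cdh6 was -0.37 without corn oil replicate 3 and -0.18 without corn oil replicate 2. Cdh1, the E-cadherin gene, had -0.02 ± 0.10.

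**Figure D3:**
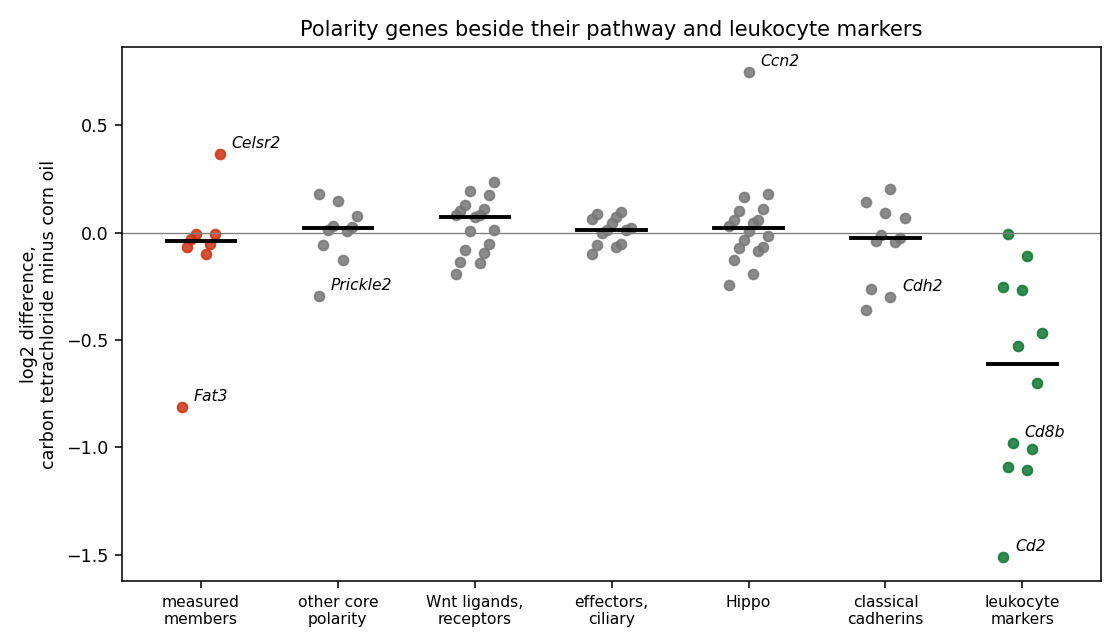
Log2 difference of each tested gene (vertical axis, carbon tetrachloride minus corn oil; 1 point per gene, bar at the list's median) in the 8 measured polarity genes, the 5 pathway lists and the leukocyte markers. Fat3 lies below every pathway gene shown, Ccn2 is the highest, and the leukocyte markers have a median of -0.61, or -0.47 without the 3 that were dim in the treated group.

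Leukocyte markers lay lower in the treated group, as Fat3 did. Of 12 markers 12 were lower, with a median log2 difference of -0.61, and 7 did not overlap between groups. Over all transcripts, 47.7% were lower and 5.27% were lower without overlap. None of the markers passed an adjusted p of 0.05 in limma. As a mean over the list relative to the control mean, the control arrays lay at -0.23 to 0.14 and the treated arrays at -0.78 to -0.60 (log2). Genes of T cells, such as Cd8b at -0.98 ± 0.09, lie at the low end, and Csf1r of macrophages had -0.0053 ± 0.11. The filter on dim probes admitted 3 of them, Cd2, Cd3e and Cd5, only through the control group, where they are high. The 9 markers that were well above background on all arrays, a subset taken after the data were seen, had a median of -0.47, with 9 lower and 4 that did not overlap. Their part in the difference of Fat3 was not tested. For other cell types, the median was 0.06 in 7 podocyte genes, 0.08 in 7 endothelial genes and 0.03 in 8 proximal tubule genes. It was 0.03 in the 4 tested of 7 genes of neurons and chromaffin cells, of which Dbh, Chga and Stmn2 were not tested. The 10 genes of stroma and smooth muscle had a median of -0.07 but went both ways. Pdgfra, Dcn, Col1a1, Col1a2 and Col3a1 were lower, at -0.39 to -0.16. Pdgfrb, Acta2, Myh11, Des and Thy1 were higher, at 0.02 to 0.56.

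Fat3 and Celsr2 kept their direction in each of 19 other settings tried, but not all of these could turn a sign. The other filters on dim probes, single-probe testing, the robust fit and the replicate block left the estimates unchanged. The slide block, slide 1 alone and leaving out carbon tetrachloride replicate 3 were the same fit. For Fat3 the log2 difference ran from -0.89 to -0.72 and its limma adjusted p from 0.363 to 0.828. For Celsr2 they ran from 0.31 to 0.46 and from 0.534 to 0.924. With 1 array left out Fat3 ran from -0.89 to -0.72 and Celsr2 from 0.35 to 0.39. Fat3 stood at -0.72 without carbon tetrachloride replicate 1, its lowest array. Dchs1 was lower in all 19 settings as well, at -0.11 to -0.02. The signs of Celsr3, Vangl1, Vangl2, Fzd6 and Fat1 turned in 2 to 5 of them, so no direction is given for these genes. The 5 of Celsr3 count the slide block, slide 1 alone and leaving out carbon tetrachloride replicate 3, which are the same fit.

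**Figure D4:**
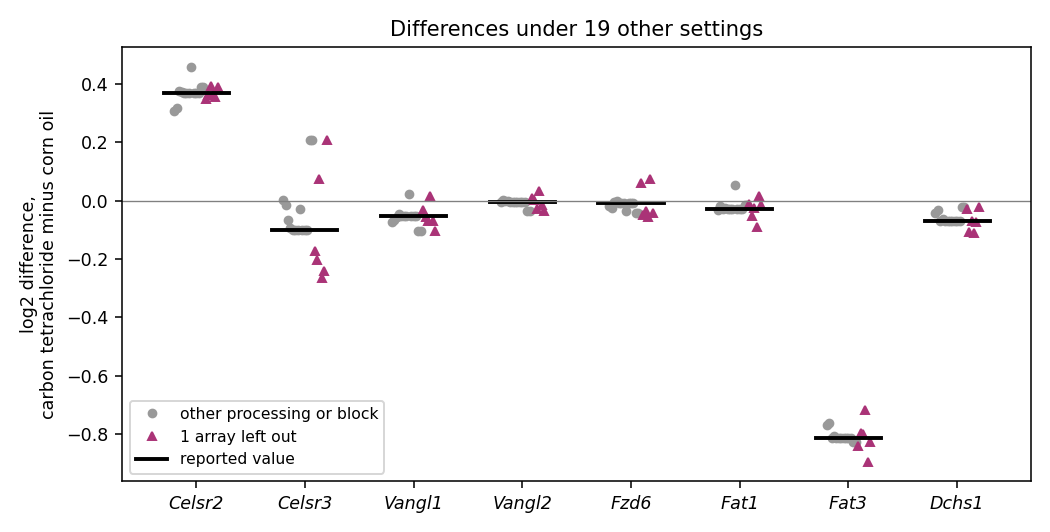
Log2 difference of each gene (vertical axis, carbon tetrachloride minus corn oil) as reported (black bar), under other processing or with a block (grey) and with 1 array left out (purple triangles). The points of Fat3 and Celsr2 stay on their side of 0, and those of Celsr3 spread from -0.26 to 0.21.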

How the data were processed

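The scanner files hold spot intensity as deposited by the authors, extracted with Agilent Feature Extraction 10.7.1.1 per the file headers (10.7 per the submitters' processing notes). The series' table, deposited by the authors, is the processed intensity divided by 1 factor per array, 1015 to 1092, with column medians of 0.118, 0.111 and 0.114 in the control group and 0.116, 0.115 and 0.111 in the treated group, in replicate order, so scale, centring and direction are known.

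Each processed signal was divided by its array's 75th percentile and put on the log2 scale, without the 1439 control spots and spots with an outlier flag. A probe was tested if well above background on all arrays of a group (42400 of 61537). Accessions were named through RefSeq (GRCr8, names only, 28206 probes, 45.8%), the brightest tested probe stood for a gene, and 31193 transcripts were fitted with limma 3.58.1 in R 4.3.3, two-sided, with Benjamini-Hochberg adjustment. Replicates are biological, per the design text. The number of arrays limits the precision. The code was tested on simulated data.

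The genes and lists were chosen with earlier results of these data known. The naming rule took all measured genes and, from each pathway list, those past the threshold or else the 3 of smallest p that were above background on all arrays. Wwtr1, Cdh1, Cyp11a1, Hsd3b1, the leukocyte genes and the genes of stroma and smooth muscle were named after their values were seen. Probe sequences were not used here.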

Additional observations from a re-analysis of the deposited data

How the results depend on the processing

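No gene of the 8 passed an adjusted p of 0.05 in limma in any of the 19 settings, and 2 had an unadjusted p under 0.05 in each. The count over all transcripts, 1 as reported, was 0 with both normexp settings, with no filter or the stricter filter on dim probes, in the robust fit with an intensity trend, with the replicate block, and on slide 1 (the same fit as a slide block), and 0 to 2 with 1 array left out. The sign of Celsr3 turned with normexp and the 75th percentile (0.0034), and with a slide block and on slide 1 (0.21). Leaving out carbon tetrachloride replicate 3 is that same fit. With 1 array left out Celsr3 ran from -0.26 to 0.21. Vangl1 turned with the mean of its probes (0.023) and ran from -0.10 to 0.016 with 1 array left out, Vangl2 turned with normexp and quantile normalization (0.0034) and ran from -0.036 to 0.032, Fzd6 ran from -0.056 to 0.073, and Fat1 turned with the mean of its probes (0.055) and ran from -0.089 to 0.015. The cause was not tested. The 15 pathway genes taken by the naming rule kept their direction in all settings, though some settings leave the estimate unchanged and could not turn it. Sizes moved, for Wnt11 and Wnt9b most with normexp. Wwtr1 and Cdh1 were not among them.

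Replicate numbers are shared between the groups, but arrays of the same number did not deviate together (correlations of -0.02, -0.10 and -0.08). Arrays of unlike number had -0.04 to 0.13. These correlations cannot settle whether the rats were paired, since each group holds only 3 arrays. With the replicate block Fat3 had -0.81 with a limma adjusted p of 0.821 and Celsr2 0.37 with 0.831. With 3 arrays a group, the intervals of all genes but Fat3 and Celsr2 span changes in both directions.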
